A study of Rattus norvegicus with 25 samples.

Results

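The genes described here encode the proteins of the cytosolic ribosome, the particle that translates mRNA in the cytoplasm. A small subunit (Rps proteins) reads the mRNA and a large subunit (Rpl proteins) joins the amino acids, and both are needed in near-equal amounts, so the mRNAs of these proteins are abundant in every cell type. Most of these mRNAs begin with a 5′ terminal oligopyrimidine tract, a run of C and T at the start of transcription through which the mTOR pathway controls their translation. In neurons, ribosomes also serve local translation in dendrites and axons.

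Gene models were chosen by name (Rpl or Rps followed by a number) and by a mean of at least 1 TPM (a transcript level corrected for gene length and library depth) over all labelled controls of a region. Of the 26312 gene models listed, 132 carried such a name, and 112 in the basolateral amygdala (BLA) and 117 in the dentate gyrus (DG) passed the minimum. They carried 78 distinct names in each region, and 109 models were members in both. Of these, 107 in the BLA and 100 in the DG passed the filter on low counts and entered the tests, so counts below refer to those.

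RNA came from the BLA (13 libraries) and the DG (12 libraries) of adult male wild-type Sprague-Dawley rats, an outbred strain, with a single library per animal and region and 11 animals sampled in both. Stressed rats had been immobilized for 3 h while exposed to the scent of a predator (fox urine), and control rats stayed in the home cage apart from a cage change. The stressed rats were also bled from the tail during stress and kept in a separate room for the first nights after it. Stressed and control rats alike were handled and went through the same behavioral tests. The stressed rats were chosen from the ends of a composite score of anxiety-like behavior, as stress-low (3 libraries in each region) and stress-high (3 libraries in each region), and 7 BLA and 6 DG libraries were labelled control. Library names also mark each control as low or high, and both kinds were pooled here. Tissue was taken on day 9 after stress as 7 to 9 punches of the left hemisphere, so it holds all cell types of the punch, and fewer cells of a type and less RNA per cell cannot be told apart.

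Control animal 2 in the BLA and control animal 35 in the DG were left out of the tests, because the study excluded a library in each region without naming its animal number, and these were the libraries farthest from the median on the first principal component of log2(TPM + 1) (distances of 64.5 and 63.7, against at most 14.5 and 8.77 for any other library). Values with them are given where they differ. The library of BLA animal 35 is named as a control while its treatment field reads as stress, and it was kept as a control. Every stress-low animal had a number above 20 and every stress-high animal a number of 20 or below, so a difference between these groups and whatever goes with the animal number cannot be told apart outside a fit that also uses the controls.

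Total expected counts of kept libraries ran from 12709493 to 22801247 for the BLA and from 11656439 to 19477932 for the DG. The granule cell marker Prox1 had 63.0 to 95.5 TPM in the DG and 2.03 to 2.93 TPM in the BLA, and the choroid plexus marker Ttr had at most 0.24 TPM in any kept library. Ribosomal protein genes took 1 to 1.31% of all counts in kept BLA libraries and 1.12 to 1.29% in kept DG libraries.

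The start of transcription is shown for the 6 members with the smallest p in the DG comparison below among those with a single promoter entry. Of the 78 names, 59 had a single promoter entry in RefSeq (build GRCr8), and each line gives 10 bases before and 20 from the annotated start, 5′ to 3′ on the gene's strand. Capitals mark the first run of at least 5 C or T that begins with C within 5 bases of that start.
Rps28, chr7:15311314-15311343, minus strand: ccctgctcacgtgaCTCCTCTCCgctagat
Rpl6, chr12:41011671-41011700, minus strand: ttacatcactagatggcgggtgaaaaggcg
Rps18, chr20:4933735-4933764, plus strand: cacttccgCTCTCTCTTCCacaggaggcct
Rpl39, chrX:121195877-121195906, minus strand: taatcgcgttCTTCCggcctgtcctttctc
Rpl36, chr9:1533770-1533799, plus strand: cggccgccatcggaaagctgcaggtaagtc
Rpl19, chr10:83519054-83519083, plus strand: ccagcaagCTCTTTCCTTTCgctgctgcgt
Rps28, Rps18, Rpl39 and Rpl19 hold such a run, and Rpl6 and Rpl36 hold none at their annotated start. Of the 17 names lower in that comparison (unadjusted p under 0.05) with a single entry, 14 held one. Over all promoters of members, 37 of 61 (60.7%) held a run of this kind, against 17 of 65 promoters of mitochondrial ribosomal proteins (26.2%) and 17.0% of 33469 promoters of all genes. The letters CTCTTT stood on the gene's strand in 26.2% of the members' 30-base windows and 1.09% of all windows, and on the other strand in 0 members and 0.968% of all windows. The letters CTTTCC, which can overlap CTCTTT, stood in 21.3% and 1.15% on the gene's strand and in 1.64% and 1.26% on the other. A match is a description of these letters and not a measured site.

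In the BLA, control levels of the members ran from 0.183 to 1152 TPM with a median of 245 TPM, the lowest being Rps27l3, which met the minimum only through the left-out control. The highest were Rps29 (1152 ± 194 TPM, SD, n = 6), Rpl41 (985 ± 125), Rpl37 (760 ± 99.2), Rpl9 (752 ± 73.6) and Rpl13a (751 ± 53.4). In the DG the median was 427 TPM, and the highest were Rps29 (5457 ± 477 TPM, n = 5), Rpl38 (2761 ± 255), Rpl37 (2244 ± 189), Rps27 (1806 ± 147) and Rps21 (1709 ± 97.2). Among named relatives of core proteins, Rpl22l1 stood at 125 ± 26.8 TPM in the BLA and 108 ± 14.8 TPM in the DG, and Rpl7l1 at 50 ± 4.44 and 81.4 ± 7.89 TPM. Rps27l stood at 21.5 ± 3.92 and 29.5 ± 5.42 TPM. Rpl10l was near the minimum (2.83 and 1.27 TPM), and Rpl3l and Rpl39l, the former known from striated muscle, lay below it in both regions.

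These TPM values are not on the same scale in both regions. The deposited effective length, the number of positions from which a fragment could start, equalled the gene length less 50 bases in every BLA library. In kept DG libraries it was the length less 261 to 274 bases (median over genes longer than 1000 bases), and shorter genes lost fewer bases. The members were short, with a median length of 532 bases in the BLA against 1996 over all genes tested, so the effective length was 90.6% of the length for the median member in the BLA and 49.5% in the DG. Rps29, at 310 bases, had an effective length of 260 bases in BLA libraries and 71.2 bases in DG libraries, with mean expected counts of 3400 and 4123.

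**Figure D1:**
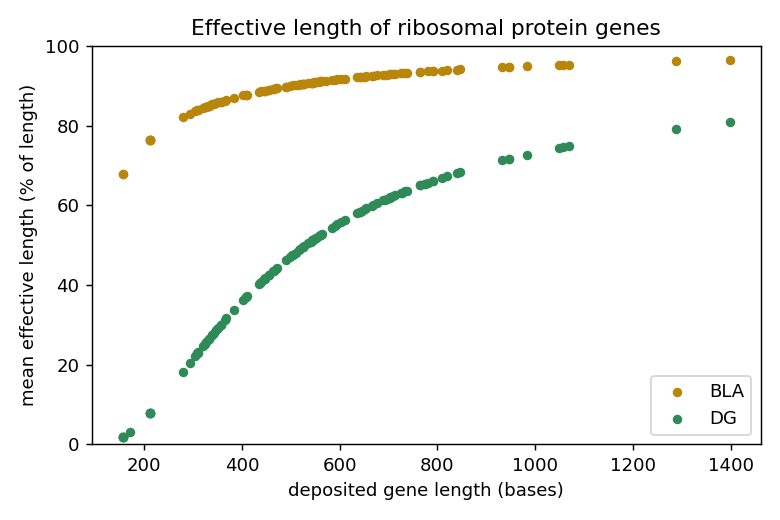
Mean effective length as a percent of gene length (vertical axis) against deposited gene length in bases (horizontal axis) for each member in the BLA and DG. The DG points lie below the BLA points at every length, falling to 1.73% for the shortest DG members.

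Copies of a name add a further limit. In the BLA 55 of the 112 models shared a name with another member (21 names), and in the DG 62 of 117 (23 names). In the BLA 5 models named RPL38 had identical counts in every kept library. For Rps28, a protein of the small subunit, the model ENSRNOG00000042886 stood at 16.0 ± 6.42 TPM in BLA controls while its copy ENSRNOG00000049442 stood at 349 ± 42.8, and in the DG the order was opposite, at 1265 ± 90.2 and 26.3 ± 9.16 TPM. For Rps19, the copies ENSRNOG00000037897 and ENSRNOG00000048199 both held 136 TPM in BLA control 14, but 334 and 1.81 TPM in control 17. A value of such a model is uncertain, and non-whole expected counts, the sign that reads were shared out between models, made up 91.1 to 95.5% of the members' values in kept BLA libraries against 18.8 to 26.1% over all genes. In kept DG libraries they made up 68.4 to 78.6% against 5.77 to 6.38% (a count was taken as whole within 1e-09).

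The question of each comparison was whether the level of these genes differed between rats with low and high anxiety-like scores after stress, or between either and controls. No member passed an adjusted p of 0.05 in any of the 6 comparisons in edgeR's quasi-likelihood test with Benjamini-Hochberg adjustment, where 0% of all genes tested passed, or in DESeq2. Counts at an unadjusted p under 0.05 are therefore given as descriptions beside the same share over all genes.

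In the DG, most members had lower values in stress-low animals than in controls, though none passed the adjusted test. Of 100 models, 88 lay below 0, with a median log2 fold change of -0.10 (-6.69%) against -0.00 over all genes tested, of which 51.0% lay below 0. At an unadjusted p under 0.05, 23 members were lower (DESeq2, 26) against 3.03% of all genes, and 0 were higher against 3.88%. The smallest adjusted p of a member was 0.718 in edgeR and 0.113 in DESeq2. With control 14 left out it was 0.111 in edgeR. The 23 models carried 22 names, 12 of the large and 10 of the small subunit, and their changes ran from -23.2% to -7.61%. With the models of each name summed, 20 of 76 names were lower (26.3%, against 3.01% of all genes in that fit).

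Rps28 had the smallest p. Its TPM was 1281, 1110, 1299, 1285 and 1348 in control animals 2, 14, 17, 28 and 32, 1088, 1004 and 1097 in stress-low animals 22, 33 and 34, and 1180, 1163 and 1161 in stress-high animals 7, 19 and 20. All stress-low values lay below all controls, the nearest control being animal 14, and the stress-high values lay above every stress-low value and above control 14 but below the other controls. The log2 fold change from control to stress-low was -0.26 ± 0.06 (SE), with an unadjusted p of 0.000528, an adjusted p of 0.718 in edgeR, and an exact two-sided permutation p on TPM of 0.0179, the smallest that 5 against 3 libraries allow.

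Rpl6, of the large subunit, had 501, 458, 477, 453 and 445 TPM in the same controls, 416, 387 and 397 in stress-low and 450, 413 and 425 in stress-high animals, for the model ENSRNOG00000025936. Stress-low and control values did not overlap (log2 fold change -0.22 ± 0.06, unadjusted p = 0.00267 and adjusted p = 0.718 in edgeR). A second model of Rpl6, ENSRNOG00000031889, likewise did not overlap, at 117 to 136 TPM in controls and 97.0 to 113 TPM in stress-low animals. Rps18, which sits in the head of the small subunit, had 896, 784, 865, 855 and 878 TPM in controls, 778, 753 and 752 in stress-low and 808, 790 and 814 in stress-high animals. Its stress-low values also lay below every control (-0.17 ± 0.05, unadjusted p = 0.00323 in edgeR, exact permutation p = 0.0357).

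Rpl39, a very small protein at the exit tunnel of the large subunit, had 892, 873, 923, 978 and 929 TPM in controls, 821, 832 and 799 in stress-low and 866, 849 and 856 in stress-high animals. It was the last of the 5 models whose stress-low and control TPM did not overlap, or 5% of members against 1.79% of all genes in that direction, and 0 members lay above without overlap against 1.92%. For Rps20, Rpl36, Rpl32 and Rpl19 the groups overlapped. Rps20 had 671 to 783 TPM in controls and 634 to 682 TPM in stress-low animals, a log2 fold change of -0.17 ± 0.05. Rpl19 had 858 to 1068 TPM in controls and 870 to 903 TPM in stress-low animals, a log2 fold change of -0.15 ± 0.06, and control 14 was its lowest library. The study, with the EBSeq method, called Rps18, Rps20, Rps28 and an entry listed as Rpl19 different between these groups at an FDR under 0.05. None passed the adjusted test here. That Rpl19 entry carries the full name of another ribosomal protein in this comparison. The study's calls come from the same samples, so the direction of these genes is not independent evidence.

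**Figure D2:**
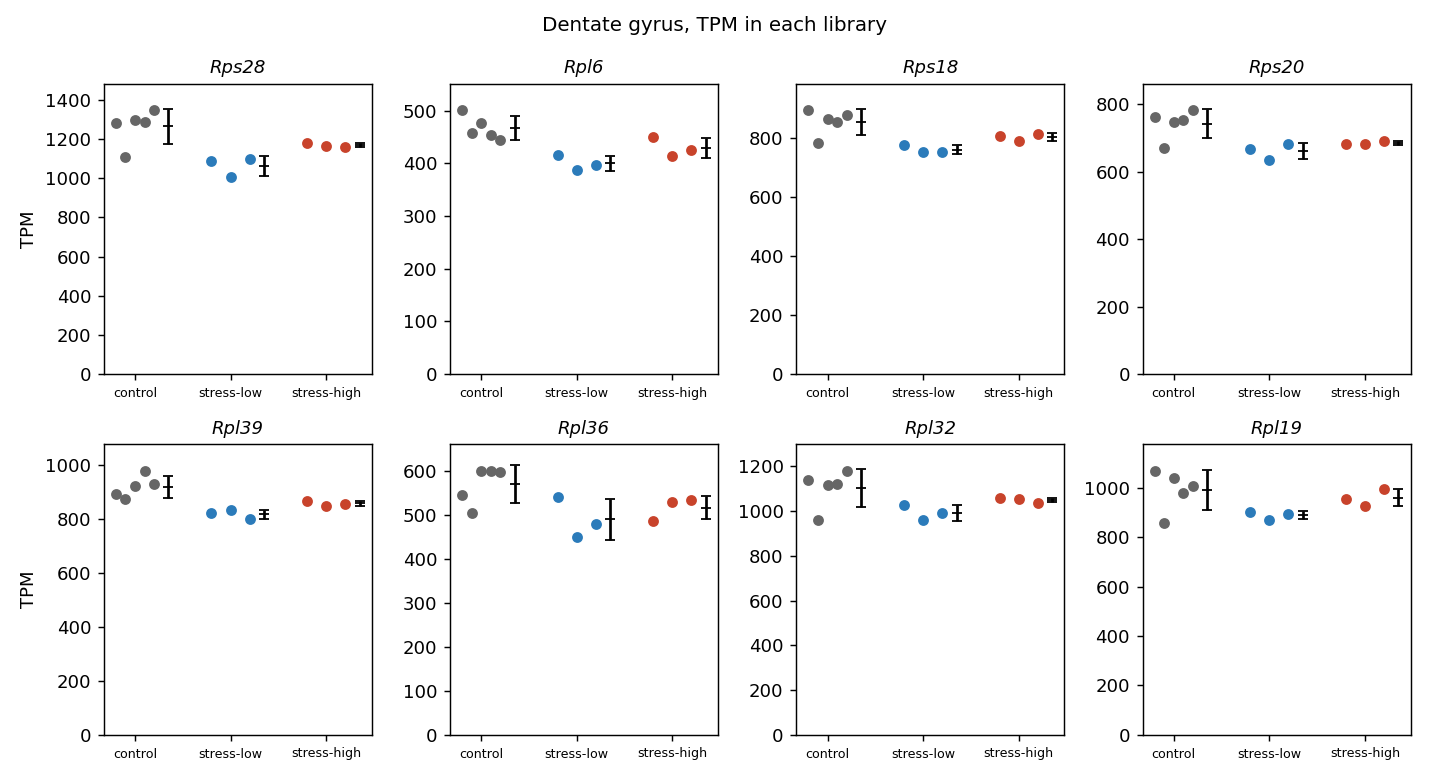
TPM in each kept DG library (points) for the 8 members with the smallest p in stress-low against control, with the mean and SD of each group beside them. For Rps28, Rpl6, Rps18 and Rpl39 every stress-low point lies below every control point, and for the other genes the groups overlap.

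The members moved together from library to library, so the 23 models are not 23 separate observations. After subtracting group means, the median correlation between pairs of members was 0.498 in the DG over 53 models with a name of their own and 0.751 in the BLA over 56 such models. Over all members tested it was 0.346 and 0.547, and over models sharing a name 0.199 and 0.346. It was 0.23 and 0.437 for mitochondrial ribosomal proteins and -0.00129 and -0.00119 over all genes tested (11 and 12 libraries, described without a test). The median log2 difference of the members from the control mean was -0.03, -0.15 and -0.13 in stress-low animals 22, 33 and 34. In controls 2, 14, 17, 28 and 32 it was 0.05, -0.11, -0.02, 0.05 and 0.02, so control 14 lay among the stress-low animals and stress-low animal 22 among the controls. By their library names, controls 2 and 28 are marked low and controls 14, 17 and 32 high. In stress-high animals 7, 19 and 20 it was -0.03, 0.00 and -0.08. Large and small subunit genes differed from each other by at most 0.03 in any DG library.

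**Figure D3:**
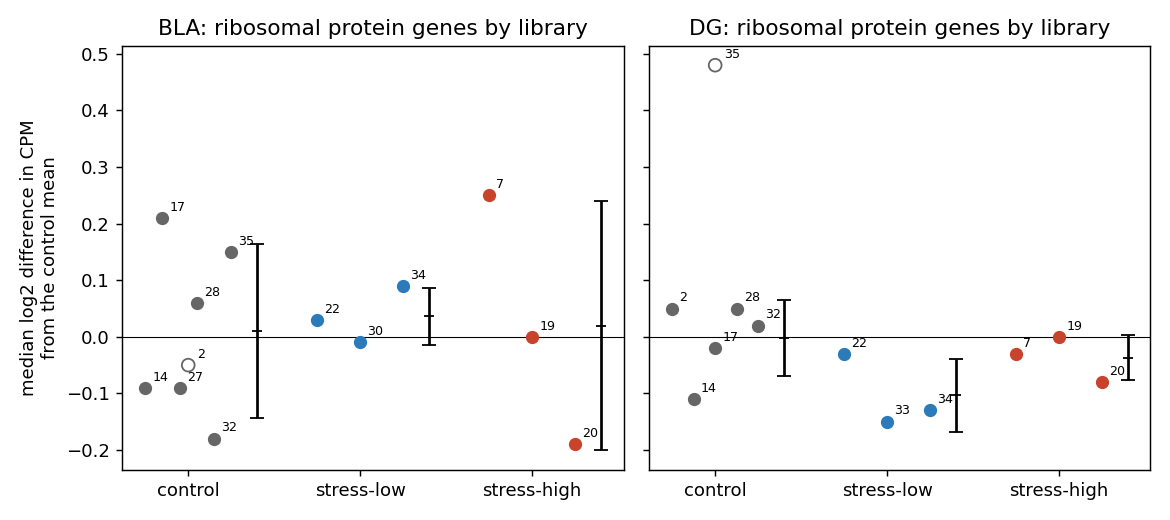
Median log2 difference in CPM (counts scaled to library depth) of the members from the mean of kept controls, for each library, labelled by animal number, with group mean and SD in black and left-out controls as open points. Groups overlap in both regions, and the left-out DG control 35 stands apart at 0.48.

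The count of lower members depended on single libraries. It was 36 without control 14 and 30 of 101 without stress-low 22, and it was 8 of 101 without stress-low 33, 12 without stress-low 34 and 15 without control 2. The share of all genes stayed between 2.22% and 4.01% as each library was left out, and the median of the members ran from -0.13 to -0.08. With the left-out control 35, 15 members were lower (all genes, 2.54%) and the median was -0.19. The animal numbers above 20 as a term gave 17 (all genes, 3.3%) and -0.14.

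**Figure D4:**
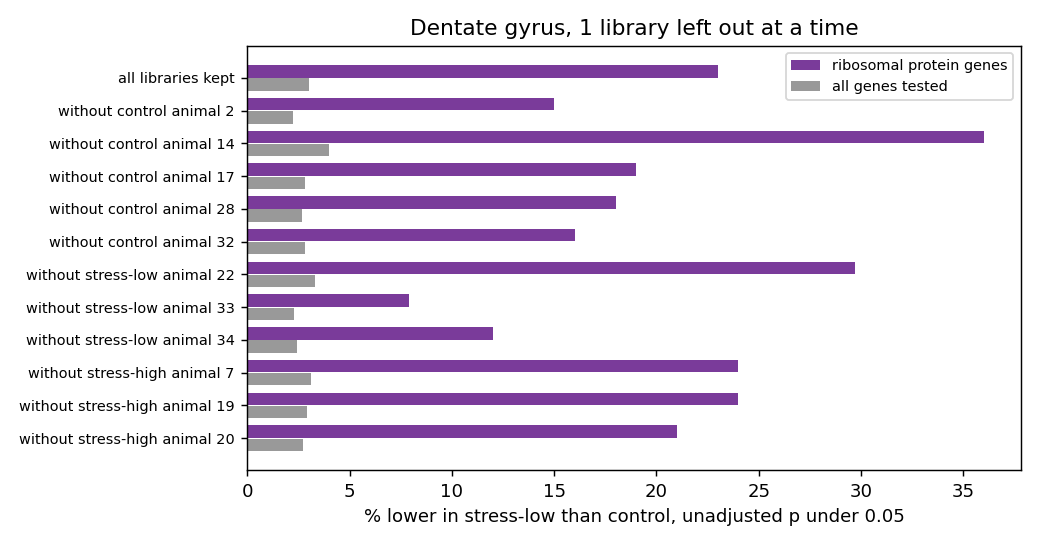
Percent of members (purple) and of all genes tested (grey) that were lower in DG stress-low animals at an unadjusted p under 0.05, with each library left out in turn. The members' share runs from 7.92% without stress-low animal 33 to 36.0% without control animal 14.

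Length moved with this difference. Median log2 fold changes of members were -0.16 under 400 bases (17 models), -0.10 from 400 to 600 bases (42), -0.09 from 600 to 1000 (36) and -0.05 from 1000 to 2000 (5). For genes that are not members they were -0.08, -0.07, -0.05 and -0.01 in the same classes. Short genes outside the list were thus lower too, by less than the members in each class. The part of length in the members' difference was not tested beyond a fit with the share of short-gene counts as a term. That fit gave 21 lower members (all genes, 3.15%), 0 higher (all genes, 5.75%) and a median of -0.10. Summed marker levels overlapped between stress-low and control libraries for 12 of 12 listed cell types, but for neurons the overlap rested on control 14. Neuron markers summed to 2402 to 2529 TPM in stress-low animals, 2410 TPM in control 14 and 2210 to 2232 TPM in the other kept controls. Control 14 was also the control with the lowest members. Stress-low animals 22, 33 and 34 had 2405, 2402 and 2529 TPM beside members' medians of -0.03, -0.15 and -0.13. The members' median was -0.11 in control 14, and 0.05, -0.02, 0.05 and 0.02 in controls 2, 17, 28 and 32. Snap25, which the study calls different between stress-low and stress-high, made up most of the sum (1358 to 1656 TPM). Excitatory neuron markers summed to 2796 to 3123 TPM in stress-low animals and 3007 to 3352 TPM in kept controls. Granule cell markers summed to 359 to 414 and 357 to 610 TPM. The part of these markers was not tested.

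The members' median in stress-high animals lay between those of the other groups in the DG. Against stress-low animals, 83 of 100 members were above 0 (all genes, 50%), with a median log2 fold change of 0.07, and 4 were higher at an unadjusted p under 0.05 against 1.73% of all genes, with 0 lower against 1.4%. The higher ones were Rps28 (0.17 ± 0.06), Rpl30 (0.43 ± 0.16) and the Rpl35a models ENSRNOG00000038678 (0.36 ± 0.13) and ENSRNOG00000031641 (0.26 ± 0.11). The other 2 models of that name, with values identical to each other, stood at -0.03 ± 0.11. Rpl19, which the study called different between these groups, was not among the 4 higher members. The count was 1 without stress-low 33 (all genes, 1.67%), 1 without stress-high 19 (1.42%), 2 without stress-high 7 (1.96%), 8 without control 2 (1.84%) and 11 without stress-low 22 (1.8%). Rpl30 had 824, 753 and 881 TPM in stress-high and 569, 716 and 567 TPM in stress-low animals, without overlap, while controls spread from 559 to 972 TPM across both. In the same comparison neuron markers did not overlap between the groups (2157 to 2321 TPM in stress-high, 2402 to 2529 TPM in stress-low), and their part was not tested. TPM did not overlap for 11 members higher in stress-high animals (4.18% of all genes) and 2 lower (4.51%), and 3 against 3 libraries cannot give an exact p below 0.1. Against controls, 71 of 100 members of stress-high animals lay below 0 (all genes, 49.5%), with a median of -0.03. Only Rps13 was lower at an unadjusted p under 0.05 in edgeR (-0.12 ± 0.05), against 1.12% of all genes, with 0 higher against 1.07%. Progenitor markers did not overlap between stress-high animals (18.2 to 19.5 TPM) and kept controls (19.9 to 24.6 TPM), and their part was not tested. The comparisons share their groups, so their values are not separate evidence.

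In the BLA the members as a group showed no difference in median beyond the spread of libraries. Median log2 fold changes were 0.03 for stress-low against control (75 of 107 above 0, against 49.1% of all genes). They were 0.02 for stress-high against control and -0.01 for stress-high against stress-low. The libraries spread more widely than in the DG: the members' median ran from -0.18 to 0.21 in kept controls, and was 0.25, 0.00 and -0.19 in stress-high animals 7, 19 and 20. Its SD within groups, 0.16, exceeded the DG value of 0.06. The median log2 fold change of stress-high against control was -0.09 without animal 7 and 0.12 without animal 20, so its direction rested on single libraries.

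At an unadjusted p under 0.05, 0 BLA members differed between stress-low and control in either direction (all genes, 1.16% higher and 1.60% lower). In stress-high against control 6 were higher against 1.16% of all genes and 1 lower against 1.42%. Of the 6, 5 were the RPL38 models with identical counts, at 1.27 to 5.6 TPM in kept controls and 5.52 to 8.78 TPM in stress-high animals, and the sixth was the Rps9 model ENSRNOG00000011355 (1.41 ± 0.54). The count of higher models was 0 without stress-high 7 (all genes, 1.39%), 1 without control 32 (1.07%), 2 without control 27 (1.49%) and 3 without stress-high 20 (1.04%). It was 8 without control 35, the library with conflicting labels (1.57%), and 1 in DESeq2 (0.88%). The lower one was the Rpl36 model ENSRNOG00000031947, at 2.10, 1.43 and 3.44 TPM in stress-high animals and 4.21 to 7.40 TPM in kept controls (-1.44 ± 0.39, unadjusted p = 0.00223 and adjusted p = 1 in edgeR). It was also the only member that differed between stress-high and stress-low animals (-1.67 ± 0.42), where 0.985% of all genes were lower and 0.998% higher, with 0 members higher. TPM in that comparison did not overlap for 7 members that were higher in stress-high animals (6.54%, against 1.18% of all genes). The RPL38 models with identical counts made up 5 of them. It did not overlap for 10 that were lower (9.35%, against 4.71%), among them Rpl41 (-0.11 ± 0.13 on the log2 scale) and Rpl8 (-0.04 ± 0.09). The main model of Rpl36, ENSRNOG00000033473, had 315 to 451 TPM in kept controls and 351 to 380 TPM in stress-high animals. With the models of each name summed, 0 of 77 names had an unadjusted p under 0.05 in any BLA comparison. Of all genes in those fits, 0.93 to 1.46% did so in a given direction. Granule cell markers, low in the BLA, did not overlap between stress-high (4.37 to 4.99 TPM) and stress-low animals (5.44 to 6.06 TPM).

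**Figure D5:**
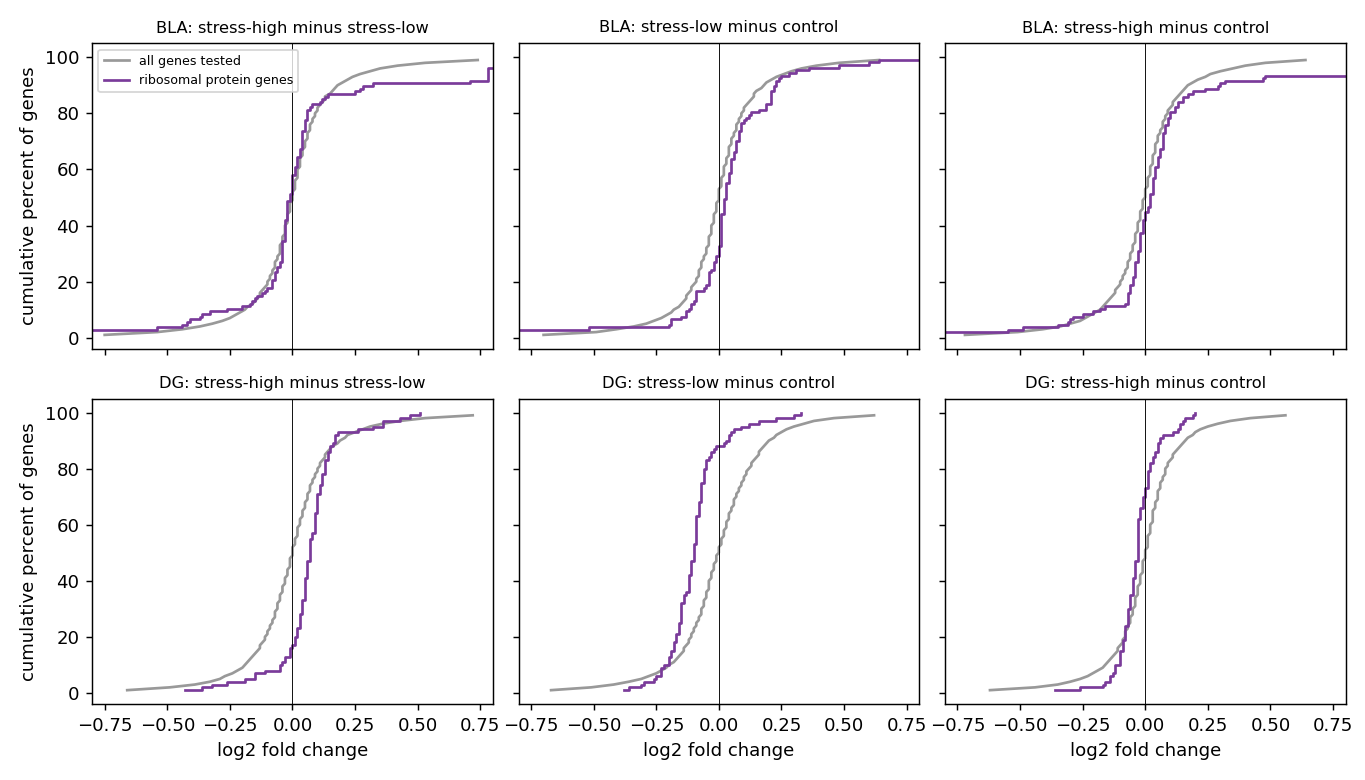
Cumulative percent of genes (vertical axis) by log2 fold change (horizontal axis, cut at 0.8 on either side) for members (purple) and all genes tested (grey) in the 6 comparisons. The curves part most in DG stress-low against control, where 88 of 100 members lie below 0, and least in BLA stress-high against stress-low.

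The difference between the regions was tested in a fit of both (111 members of 15453 genes). No member passed an adjusted p of 0.05 in edgeR for any contrast, nor with DESeq2. For stress-low against control, the median DG minus BLA difference of the members was -0.14, and 4 members had an unadjusted p under 0.05 (Rps4x, Rps28, Rps12 and Rps18), 3.6% against 3.21% of all genes. For stress-high against control 2 members did so (1.8%, against 1.84% of all genes), and for stress-high against stress-low 0 (2% of all genes). Among kept libraries, 9 animals had both regions, of which animals 22 and 34 were the stress-low ones. Only these 9 inform the difference between regions in a fit with the animal as a block. In that fit 7 members had an unadjusted p under 0.05 in edgeR for stress-low against control (6.31%, against 2.87% of all genes). The count was 7 for stress-high against stress-low (6.31%, against 3.48%) and 2 for stress-high against control (1.8%, against 2.78%). Some of the 111 models held no counts in one of the regions. Over the 96 that passed the filter on low counts in each region, the counts were 4, 2 and 0 without the block (3.09, 1.65 and 1.84% of genes so filtered) and 7, 2 and 7 with it (2.83, 2.76 and 3.48%), in the order stress-low against control, stress-high against control and stress-high against stress-low. The last 7 included a pair of RPL35A copies with identical DG values. The Rps28 value, -0.87 ± 0.36, compares a model that held few BLA counts.

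Genes around the pathway were taken from fixed lists. Of 9 models of core ribosomal genes outside the naming rule, such as the fusion gene Fau, 9 lay below 0 in DG stress-low against control, with a median of -0.09, and Fau (-0.17 ± 0.05) and RPL36AL (-0.31 ± 0.10) were lower at an unadjusted p under 0.05. Of 13 other mRNAs known to begin with an oligopyrimidine tract, mostly translation factors, 7 lay below 0 and the median was -0.00, with the initiation factor subunit Eif3e higher (0.33 ± 0.12). Of 21 models of ribosome biogenesis genes 3 were lower, namely Ubtf, a factor for rRNA transcription, Eif6 and Pes1, and the median was -0.02. Of 12 mTOR pathway genes, Akt1 was lower (-0.14 ± 0.06). Of 76 mitochondrial ribosomal protein models 3 were lower and 1 higher, with a median of -0.03. These counts stand beside 3.03% of all genes lower and 3.88% higher. None passed the adjusted p in edgeR, and the smallest adjusted p was 0.718. In the other DG comparisons and in the BLA, at most 2 genes of any of these lists had an unadjusted p under 0.05. Members with a tract at the start had a median of -0.11 (50 models, 14 lower) and those without one -0.10 (26 models, 4 lower).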

How the data were processed

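RNA was poly-A selected, and the authors estimated levels with STAR 2.6.0a and RSEM 1.3.1 (per the labels' processing notes). They deposited, for each gene and library, an expected count (an estimate that shares reads between similar genes), TPM, length and effective length, and no other sample's values were in the tables. The rat build was Rn5, and promoter sequences were from RefSeq on GRCr8, matched by symbol.

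Members and lists were chosen with earlier results of these data known. Expected counts were rounded and tested in edgeR 4.0.16 (R 4.3.3) by quasi-likelihood, with TMM scaling, filterByExpr at a minimum count of 10, 3 group means per region, and Benjamini-Hochberg adjustment over all genes tested, 15230 for the BLA and 14080 for the DG. The study used EBSeq, which was not used here. SE was the size of the log2 fold change divided by the root of F. Library differences used log2 CPM with a prior count of 2. DESeq2 1.42.0 and limma 3.58.1 on log2(TPM + 1) were alternatives. TPM of single members was compared by exact permutation. The count test was tested on simulated data. At an adjusted p under 0.05 in edgeR it recovered 69.7% (BLA) and 53.7% (DG) of 1.5-fold changes in stress-low against control. Of its calls, 5.2% and 4.82% were false. Smaller changes, such as those of the 23 DG members, were not simulated. Each group held a single library per animal, named genes followed a rule on p, level, length and the study's names, and Rpl9l3, which that rule lists, was not found under that name. Depth is given in the report, and expected counts carry no interval. The animal numbers did pair libraries between regions (correlation of deviations 0.0737 to 0.235 over 9 animals), since both came from the same rat. The outlier result of 1 further member is not reported here.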

Additional observations from a re-analysis of the deposited data

Results flagged for a closer look

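The left-out DG control 35 lay far from the other labelled controls, with 1.66% of its counts in ribosomal protein genes and a median log2 difference of 0.48. The study excluded a DG control library whose RNA had been extracted again and which did not cluster with the others on principal components. It came from a control with the lowest possible composite score, but no animal number was given, so whether it is this library is not stated. Library 35 is marked low in its name, as are other controls. Its distance on the first principal component was 63.7, against at most 8.77 for any other DG library. Its share of counts in other short genes was 9.24%, against 6.49 to 7.22% in kept DG libraries. Among kept DG controls, animal 14 lay apart and low for Rps28 (1110 TPM) and Rpl13 (687 TPM), and animal 2 lay apart and high for the second Rpl6 model (136 TPM). Chance marks about 1 in 20 groups in this way, 39 groups were examined, and these genes share libraries.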

How the results depend on the processing

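The number of members with an adjusted p under 0.05 stayed at 0 in every comparison under every alternative run. The median log2 fold change of members in the DG moved by more than the SD between libraries only with all labelled libraries, to -0.19 for stress-low and -0.12 for stress-high against control. With each library left out, that median ran from -0.13 to -0.08 and from -0.06 to -0.01, and DG stress-high against stress-low from 0.04 to 0.10. In the BLA it ran from -0.14 to 0.09, from -0.00 to 0.07 and from -0.09 to 0.12 for stress-high against stress-low, stress-low against control and stress-high against control. Of the single members with an unadjusted p under 0.05, none changed direction in the alternatives run. In DG stress-low against control the count of lower members was 10 to 17 of 117 by limma on TPM (all genes, 2.79 to 3.19%), and 3 were higher (all genes, 3.36 to 3.49%). Replicate numbers in the titles did not pair libraries of different groups (correlations -0.126 to 0.0725 in the BLA and -0.185 to 0.111 in the DG), and the replicate block gave 17 lower members in that comparison (all genes, 2.39%), a median of -0.10, and 0 adjusted calls throughout. With a block by animal, the differences between regions had 7, 7 and 2 members at an unadjusted p under 0.05 (all genes, 3.48, 2.87 and 2.78%) against 0, 4 and 2 without it, and 0 adjusted. Restricting them to models tested in both regions, an alternative chosen after seeing the data, also gave 0. Members under the count filter were not tested, 17 in the DG (mean expected counts of 0.201 to 7.9) and 5 in the BLA (2.18 to 8.75).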
